A study of Mus musculus with 6 samples.

Results

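In all, 10 genes of the p53 pathway were followed through the mouse retina with and without Dram2: Trp53, Mdm2, Cdkn1a, Gadd45a, Ccng1, Bax, Bbc3, Pmaip1, Sesn1 and Phlda3. They are 10 of the 52636 genes in the count table, and they were picked by name because DRAM proteins are linked to p53, with earlier results of these data known. At least 1 UMI (unique molecular identifier, which marks each captured RNA molecule so that PCR copies are counted once) was found for all 10. Retinas of male C57BL/6J mice aged 12 months were dissociated into cells, whose RNA was then counted cell by cell from its 3′ end (10x Genomics). There were 3 Dram2 wt/wt retinas and 3 Dram2 ko/ko retinas, whose mice carried a constitutive CRISPR deletion of exon 4 of Dram2, so that the loss was not limited to a cell type. The labels call these genotypes Dram2 WT and Dram2 KO. Replicate 3 of each genotype was labelled batch 1 and replicates 1 and 2 batch 2, which puts 1 batch 1 retina and 2 batch 2 retinas in each genotype. The labels do not say how many mice gave each sample, so the spread given here is that between these 6 samples. The protocol text filed with them counts a single sample per genotype, whereas the labels give 3, which were used as replicates here. The series' design text also calls the tissue choroid, whereas the labels call it retina.

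p53 is a transcription factor that is held at a low level by Mdm2 and rises when DNA is damaged or a cell is stressed. It then switches on genes that stop the cell cycle, repair or buffer damage, or open the mitochondrial route to apoptosis. Dram1, the namesake of the DRAM family, is a p53 target tied to autophagy, and Dram2 is its relative.

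Of the 10 genes, 9 had a RefSeq promoter window that was searched for the p53 response element, which is built from a pair of half-sites (Pmaip1 was not searched). A paired site with at most 3 mismatches and at most 1 base between the half-sites stood within 250 bases before and 50 bases after an annotated start of 6 of the 9 genes. The same search found one in 3.27% of 27025 mouse genes. An unbroken half-site was in the windows of 7 of the 9, against 9.55% of all genes. The 6 sites are shown so that their letters can be compared. Each is printed 5′ to 3′ on the strand of its gene with the half-sites in capitals and 20 bases on either side, and a lower-case letter between the capitals is the spacer.
Cdkn1a: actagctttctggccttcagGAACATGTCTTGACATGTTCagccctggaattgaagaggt
Ccng1: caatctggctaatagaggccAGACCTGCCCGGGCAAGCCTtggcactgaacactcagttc
Bax: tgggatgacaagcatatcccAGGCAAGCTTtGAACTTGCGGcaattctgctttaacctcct
Bbc3: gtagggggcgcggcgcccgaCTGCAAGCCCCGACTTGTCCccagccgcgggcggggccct
Sesn1: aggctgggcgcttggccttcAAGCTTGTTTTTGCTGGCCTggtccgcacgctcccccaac
Trp53: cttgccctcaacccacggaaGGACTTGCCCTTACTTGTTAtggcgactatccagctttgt
Cdkn1a and Ccng1 came closest to the full element, with 1 mismatch each over the paired half-sites. In GRCm38.p6 the Cdkn1a site lies at chr17:29090928-29090947 on the plus strand, 51 to 32 bases before the start, and the Ccng1 site at chr11:40755462-40755481 on the minus strand, 195 to 176 bases before it. The Bax site, with 2 mismatches and a 1-base spacer, lies at chr7:45467079-45467099 on the minus strand, 201 to 181 bases before the start. The other 3 sites had 3 mismatches: Bbc3 at chr7:16309486-16309505, Sesn1 at chr10:41887266-41887285 and Trp53 at chr11:69580284-69580303, all on the plus strand. The windows of Gadd45a and Mdm2 held a half-site alone, and that of Phlda3 held neither. Cdkn1a, Bbc3 and Sesn1 also had windows at other annotated starts, and those held neither a paired site nor an unbroken half-site. A match is a string of letters and was not checked for binding here.

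The deposited table held 46375 cells, of which 45746 carried 1 of 5 deposited cell types. UMIs per retina ranged from 3463728 to 6563762. The mitochondrial share of UMIs was 0.405% to 0.720% in batch 2, and 2.75% and 3.22% in the ko/ko and wt/wt retinas of batch 1. Photoreceptors made up 42359 of the typed cells with a median of 428 UMIs, interneurons 2083 with 1844, glia 942 with 1683, mesenchymal cells 246 with 1905 and retinal pigment epithelium (RPE) cells 116 with 1121.5. In the deposited mesenchymal type, fibroblast markers were nearly missing (Col1a1, Lum and Col3a1 at 0 UMIs). All 10 microglia, all 8 endothelial and all 6 pericyte markers were found, as they were in photoreceptors too. Their mean sums in mesenchymal cells were 17504, 9018 and 4317 CPM. The highest means elsewhere were 186 CPM for microglia markers (RPE cells), 862 CPM for endothelial (glia) and 1650 CPM for pericyte markers (photoreceptors). Rod markers summed to 49794 to 79266 CPM in photoreceptors and to 4569 to 11454 CPM in the other types, so RNA from rods was present in every type. CPM are the UMIs of a gene per 1000000 UMIs of that type in that retina. Dram2 itself was counted in wt/wt retinas at 28.1, 35.2 and 56.6 CPM over all typed cells and in ko/ko retinas at 27.4, 33.9 and 53.6 CPM. The 3′ end that is counted lies outside the deleted exon, so these values do not check the genotype.

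Over all typed cells the genes gave between 36 UMIs (Pmaip1) and 2685 UMIs (Bax), which sets how precisely each could be followed. Gadd45a had 2172, Sesn1 1908, Mdm2 1738, Ccng1 1226, Trp53 458, Cdkn1a 155, Phlda3 107 and Bbc3 90. Levels are compared below between cell types and retinas for 1 gene at a time, since 3′ counts are not scaled to transcript length. The cell types came from clusters that the authors made from these same counts, so a test between types is not independent of the clustering. Of the 10 genes, 6 passed the filter on low counts in the joint fit of 30 sums (6 retinas by 5 types). Cdkn1a would have failed it without the mesenchymal sums in which it is high, Gadd45a without the photoreceptor sums and Ccng1 without the interneuron sums. These 3 genes had to differ between types once they were let in, so they are left out of the counts that follow and their differences between types are given without the filter. The other 3 (Mdm2, Bax and Sesn1) differed between types at an adjusted p under 0.05 (edgeR quasi-likelihood test, Benjamini-Hochberg adjustment over 6290 genes), beside 94.3% of all genes tested, which is no result about them. Between photoreceptors and interneurons 3 of the 3 were called (66% of all genes), between photoreceptors and glia 1 (69%), between photoreceptors and mesenchymal cells 2 (64.2%) and between glia and mesenchymal cells 1 (44.8%). Without the filter on low counts, the tests on all 10 gave adjusted p from 2.94e-157 (Cdkn1a) to 0.0293 (Bax), where 15741 of 32864 genes were called.

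**Figure D1:**
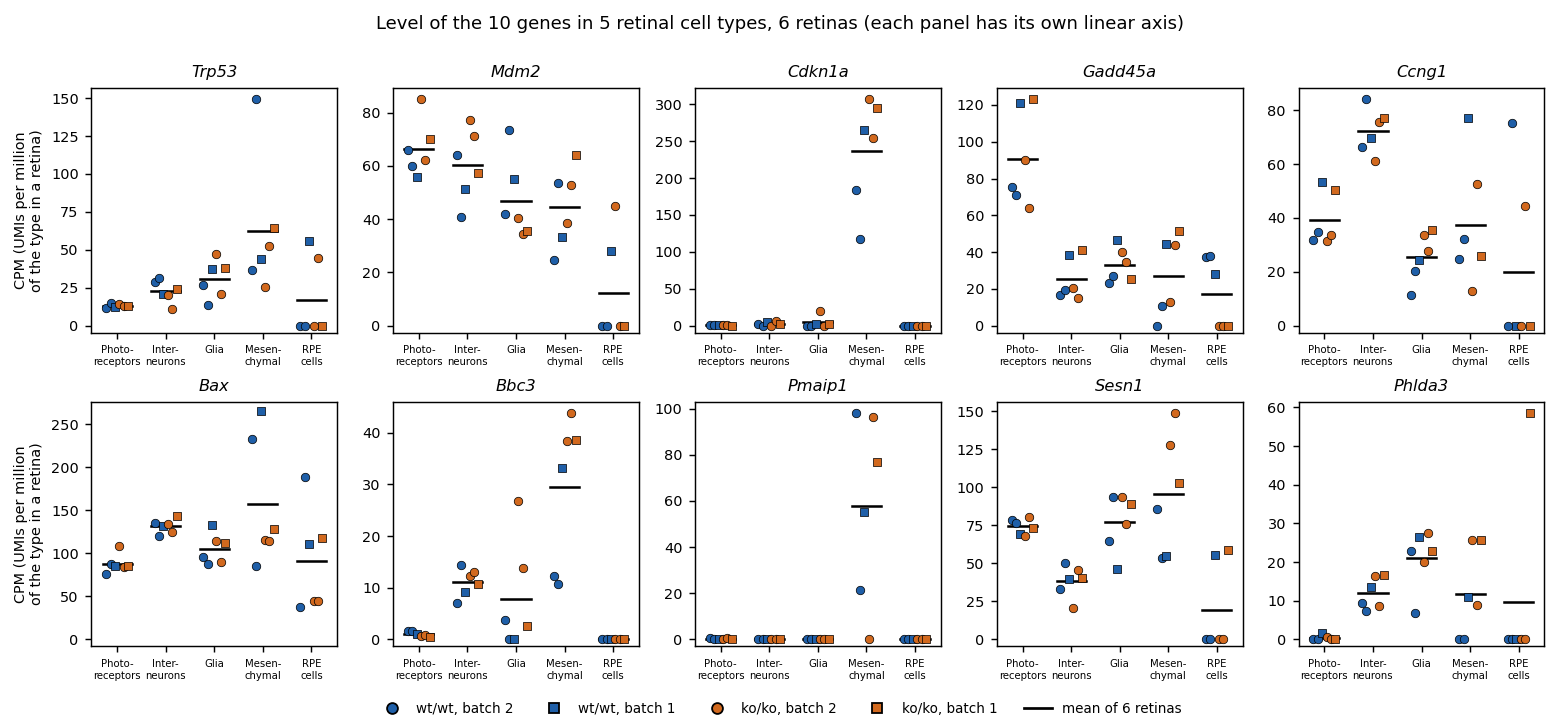
CPM (UMIs per 1000000 UMIs of a cell type in a retina, vertical, linear axis of its own in each panel) of the 10 genes in 5 cell types (horizontal); each point is 1 retina, blue wt/wt and orange ko/ko, squares batch 1 and circles batch 2, and the line is the mean of 6 retinas. Cdkn1a and Pmaip1 stand high in mesenchymal cells alone, Gadd45a in photoreceptors and Ccng1 in interneurons, and wt/wt and ko/ko points mix in most panels.

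Trp53, the gene of p53 itself, was counted in all 5 types. Its level in photoreceptors was 13.0 ± 1.21 CPM (SD, n = 6 retinas) and lay between 11.3 and 14.6 CPM in single retinas. Interneurons had 22.6 ± 7.23 CPM, glia 30.5 ± 12.5 CPM and mesenchymal cells 62.1 ± 44.8 CPM. Without the filter on low counts, photoreceptors were lower than glia by edgeR (log2 difference -0.91, SE 0.26, adjusted p = 0.00213) and lower than mesenchymal cells (log2 -1.72, SE 0.32, adjusted p = 7.45e-07). Glia and interneurons, neighbours in the order, did not differ past the threshold (adjusted p = 0.246), nor did mesenchymal cells and glia (adjusted p = 0.116). In mesenchymal cells wt/wt replicate 2 alone gave 149 CPM from 14 UMIs, and the other 5 retinas gave 25.6 to 64.2 CPM. A processed pseudogene, Trp53-ps, received 1 UMI.

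Mdm2 encodes the ubiquitin ligase that marks p53 for breakdown and is itself a p53 target. It was counted at 66.5 ± 10.4 CPM in photoreceptors, 60.3 ± 13.4 CPM in interneurons, 46.8 ± 15.1 CPM in glia and 44.4 ± 14.8 CPM in mesenchymal cells (SD, n = 6). Photoreceptors exceeded interneurons in 5 of 6 retinas. That pair was called by edgeR (log2 difference 0.44, SE 0.13, adjusted p = 0.00224), but on total UMIs alone, without TMM factors, the difference was 0.10 with an adjusted p of 0.494. Between these types the TMM factors moved the median of all 6290 genes from -0.32 to 0.01 on the log2 scale, and the genes called higher and lower in photoreceptors from 1278 and 3082 to 2071 and 2082. The remaining neighbours in the order did not pass the threshold (adjusted p = 0.392 for interneurons and glia, 0.942 for glia and mesenchymal cells and 0.0642 for mesenchymal and RPE cells).

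Cdkn1a, the first of the arrest genes, encodes p21, the cyclin-dependent kinase inhibitor that halts the cell cycle downstream of p53, and its UMIs came mostly from the mesenchymal type, with 126 of 155. Mesenchymal cells gave 184, 117 and 265 CPM in the wt/wt retinas and 307, 254 and 295 CPM in the ko/ko retinas. No other type went above 20.1 CPM in any retina. Mean levels were 237 ± 72.8 CPM in mesenchymal cells, 4.14 ± 7.91 CPM in glia, 2.56 ± 2.66 CPM in interneurons and 0.556 ± 0.440 CPM in photoreceptors (SD, n = 6). In RPE cells there was no UMI, and 3 counts in a retina would have been 83.4 to 176 CPM there. Mesenchymal cells exceeded glia, the next type, by a log2 difference of 5.97 (SE 0.39, adjusted p = 2.32e-51, edgeR without the filter on low counts). With the filter the difference was 6.17, and it ranged from 5.70 to 7.41 over all alternatives. Interneurons exceeded photoreceptors as well (log2 1.93, SE 0.53, adjusted p = 0.00154, without the filter), on 13 and 11 UMIs. In the fit with the filter that call was lost without wt/wt replicate 3 (log2 1.54, adjusted p = 0.0781). The UMIs of Cdkn1a lay in 65 of the 246 mesenchymal cells, with 2 or more in 26 cells and at most 12 in 1 cell.

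Pmaip1 encodes Noxa, a BH3-only protein that frees the apoptotic effectors by binding Mcl1, and it showed the same placement. Of its 36 UMIs, 32 were in mesenchymal cells, in 26 cells, and the other 4 were in photoreceptors. Mesenchymal levels were 98.2, 21.3 and 55.1 CPM in wt/wt retinas and 0, 96.4 and 77.0 CPM in ko/ko retinas. No UMI was seen in interneurons or glia, where 3 counts over all retinas would have been 0.703 and 1.93 CPM. Mesenchymal cells exceeded photoreceptors 315-fold in pooled CPM, a ratio that was not itself tested. By edgeR without the filter on low counts, photoreceptors were lower than mesenchymal cells (log2 -7.01, SE 0.61, adjusted p = 2.00e-29).

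Mesenchymal cells were divided by whether microglia markers or the endothelial, pericyte and fibroblast markers together had more UMIs in a cell. This division was made after the data were seen and is a description. It gave 89 cells with more microglial UMIs, 146 with more of the other lists and 11 with equal numbers, and 6 cells of the microglial and 3 of the other class lay within 2 UMIs of the cut. Cdkn1a had 118 of its 126 UMIs in the endothelial, pericyte and fibroblast class, a pooled level of 332 CPM, against 6 UMIs and 34.8 CPM in the microglial class. All 32 Pmaip1 UMIs were in the endothelial, pericyte and fibroblast class, at 90.1 CPM. Trp53 had the opposite order, with 104 CPM in the microglial class and 45.0 CPM in the other, but 11 of its 18 microglial UMIs came from wt/wt replicate 2. Sesn1 was at 63.8 CPM in the microglial and 113 CPM in the other class, and Bax at 128 and 166 CPM. Immediate early genes, which rise during dissociation of living tissue, summed to 4749 to 7228 CPM in the mesenchymal type and to 75.2 to 1140 CPM in the other types (12 of 12 genes listed). Their part in the levels of Cdkn1a and Pmaip1 was not tested.

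**Figure D2:**
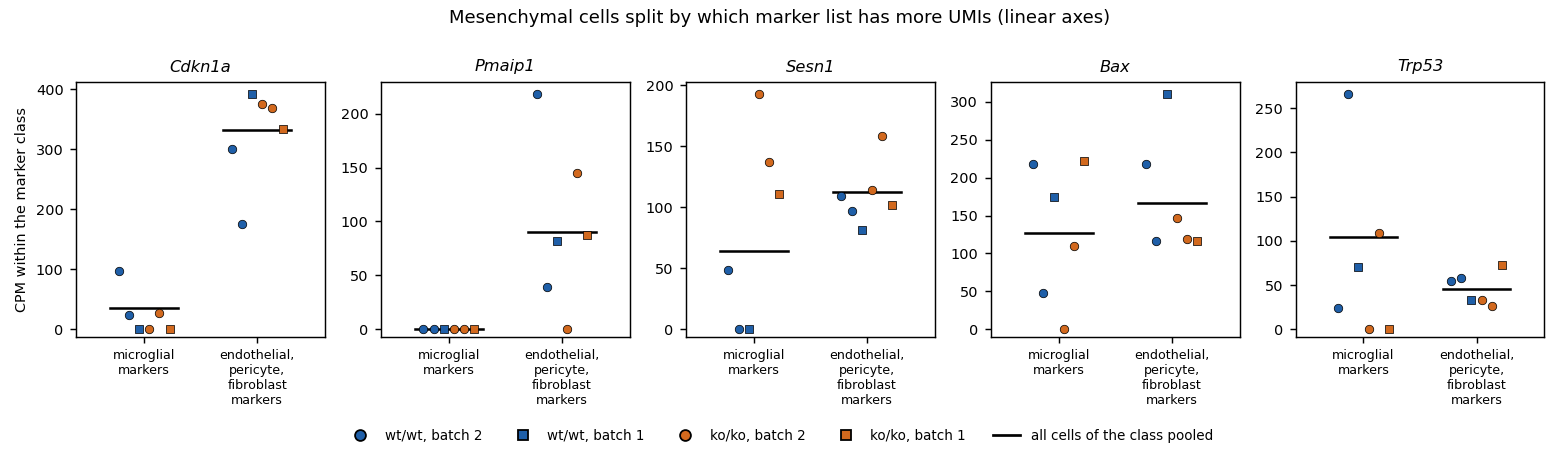
CPM of 5 genes (vertical, linear axes) in mesenchymal cells with more microglial marker UMIs (left of each panel) and with more endothelial, pericyte and fibroblast marker UMIs (right); each point is 1 retina, blue wt/wt and orange ko/ko, squares batch 1, and lines are the pooled level of the class. Cdkn1a lies at 175 to 392 CPM on the right and at 0 to 96.7 CPM on the left, and Pmaip1 is 0 in all 6 retinas on the left.

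Gadd45a, a stress sensor of the growth-arrest and DNA-damage family that binds Pcna and p21, was highest in photoreceptors. Photoreceptors gave 75.5, 71.1 and 121 CPM in wt/wt and 89.9, 64.1 and 123 CPM in ko/ko retinas. Glia had 32.7 ± 9.27 CPM, mesenchymal cells 27.1 ± 21.8 CPM and interneurons 25.1 ± 11.5 CPM, with photoreceptors above glia in 6 of 6 retinas. Photoreceptors exceeded glia by a log2 difference of 2.02 (SE 0.21, adjusted p = 2.75e-20, edgeR without the filter on low counts). Glia, mesenchymal cells and interneurons did not differ past the threshold as neighbours in that fit (adjusted p = 1.000 for both). A gene on the opposite strand, E230016M11Rik, overlaps Gadd45a and had 317 UMIs. Whether the counting kept them apart is not given in the sources used here.

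Ccng1 encodes cyclin G1, a p53 target that acts with a phosphatase on Mdm2. It was highest in interneurons, at 66.4, 84.2 and 69.7 CPM in wt/wt and 61.0, 75.5 and 77.0 CPM in ko/ko retinas. Photoreceptors had 39.2 ± 9.90 CPM, mesenchymal cells 37.5 ± 23.5 CPM and glia 25.4 ± 8.91 CPM (SD, n = 6). Interneurons lay above photoreceptors in 6 of 6 retinas, by a log2 difference of 0.45 (SE 0.15, adjusted p = 0.00854, edgeR without the filter on low counts). With the filter the difference was 0.53, and 0.88 with the filter but without TMM factors. Lower in the order, no pair of neighbours passed the threshold.

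Among the death genes, Bax, which forms pores in the outer mitochondrial membrane, was at 157 ± 73.4 CPM in mesenchymal cells, 132 ± 8.09 CPM in interneurons, 105 ± 17.5 CPM in glia, 90.5 ± 59.5 CPM in RPE cells and 87.9 ± 11.0 CPM in photoreceptors, and none of the 4 neighbouring pairs passed the threshold (edgeR adjusted p from 0.108 to 0.536). Photoreceptors were below interneurons (log2 -0.31, SE 0.12, adjusted p = 0.0159) and below mesenchymal cells (log2 -0.67, SE 0.19, adjusted p = 0.00173). By edgeR without the filter on low counts neither difference was called (log2 -0.21, adjusted p = 0.231, and log2 -0.27, adjusted p = 0.425). Mesenchymal cells lay above interneurons by a log2 difference of 0.37 (adjusted p = 0.108), and this ranged from 0.06 without the filter on low counts (adjusted p = 1.000) to 0.69 over the 14 alternatives. It passed the threshold with DESeq2 (log2 0.48, adjusted p = 0.0434), with RLE factors (0.47, 0.0410), in the wt/wt retinas alone (0.69, 0.0285) and without ko/ko replicate 3 (0.50, 0.0493), and not with the others. A transcript on the same strand, Gm45808, overlaps Bax and had 72 UMIs. Bbc3 encodes Puma, a BH3-only activator of Bax that p53 induces, and it had 21 UMIs in 42359 photoreceptors but 16 in 246 mesenchymal cells. Its levels were 29.5 ± 14.4 CPM in mesenchymal cells, 11.1 ± 2.65 CPM in interneurons, 7.82 ± 10.6 CPM in glia and 1.04 ± 0.471 CPM in photoreceptors. Without the filter on low counts, edgeR placed photoreceptors below glia (log2 -1.94, SE 0.64, adjusted p = 0.00989), below interneurons (log2 -2.98, SE 0.38, adjusted p = 6.08e-14) and below mesenchymal cells (log2 -4.15, SE 0.55, adjusted p = 9.83e-13). The order with glia was not seen in wt/wt retinas, where glia had a mean of 1.27 CPM on 1 UMI and photoreceptors 1.42 CPM. In ko/ko retinas the means were 14.4 CPM on 7 UMIs and 0.652 CPM.

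The remaining genes act on survival and growth. Sesn1, a sestrin that restrains the growth kinase mTORC1, was at 95.7 ± 38.7 CPM in mesenchymal cells, 77.2 ± 18.9 CPM in glia, 74.4 ± 5.05 CPM in photoreceptors and 38.3 ± 10.5 CPM in interneurons. Photoreceptors exceeded interneurons in 6 of 6 retinas (log2 1.16, SE 0.15, edgeR adjusted p = 7.77e-11), and the 3 higher types did not differ as neighbours (adjusted p = 0.248 and 0.368). The transcript 9930024M15Rik overlaps Sesn1 on the same strand and had 144 UMIs. Phlda3 encodes a small protein that competes with Akt for membrane lipids, and it was found at 21.1 ± 7.55 CPM in glia and 12.0 ± 4.09 CPM in interneurons but with only 9 UMIs, 0.430 ± 0.667 CPM, in photoreceptors. By edgeR without the filter on low counts, photoreceptors were lower than glia (log2 -4.84, SE 0.45, adjusted p = 2.20e-25), while glia and interneurons did not differ past the threshold (adjusted p = 0.129). In RPE cells the 10 genes were near the limit of the data, with 14 UMIs of Bax, at most 3 of any other gene and none of Cdkn1a, Bbc3 and Pmaip1.

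Within photoreceptors, Gadd45a, Sesn1 and Ccng1 kept 1 order between rod and cone classes in every retina. The share of all genes that do so was not counted. Photoreceptors were divided by whether rod or cone markers had more UMIs, again as a description made after the data were seen, into 41443 cells with more rod and 894 with more cone UMIs (22 were equal). Median depth was 422 UMIs in the rod class and 1873.5 in the cone class. Gadd45a was higher in the rod class of every retina, at 66.7 to 130 CPM against 17.9 to 56.3 CPM in the cone class. Sesn1 had the same order in all 6 retinas, at 71.5 to 84.2 CPM against 12.0 to 50.2 CPM. For Ccng1 the cone class was higher in all 6, at 36.5 to 66.2 CPM against 28.9 to 52.2 CPM. Its gap was small in ko/ko replicate 2 (36.5 against 33.5 CPM) and ko/ko replicate 3 (53.2 against 50.1 CPM). The cone class held 3 to 22 UMIs of Gadd45a a retina, 2 to 18 of Sesn1 and 10 to 26 of Ccng1. Trp53, on 40 UMIs, ranged from 0 to 54.7 CPM in the cone class and from 9.18 to 15.0 CPM in the rod class. Mdm2 and Bax overlapped between the classes. Interneurons divided in the same way by bipolar and amacrine markers gave 1642 and 366 cells. The batch 1 retinas held 171 (wt/wt) and 141 (ko/ko) of the amacrine class and the others 3 to 19 each, so the classes are compared within those 2 retinas. Ccng1 was at 88.2 and 98.6 CPM in the bipolar class of the wt/wt and ko/ko retina and at 33.2 and 45.1 CPM in the amacrine class. Phlda3 was at 3.43 and 11.2 CPM in the bipolar and 31.2 and 24.6 CPM in the amacrine class, on 3 to 16 UMIs. Gadd45a had no common order, with 28.6 CPM in the bipolar and 56.6 CPM in the amacrine class of the wt/wt retina but 39.9 and 38.9 CPM in those of the ko/ko retina.

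**Figure D3:**
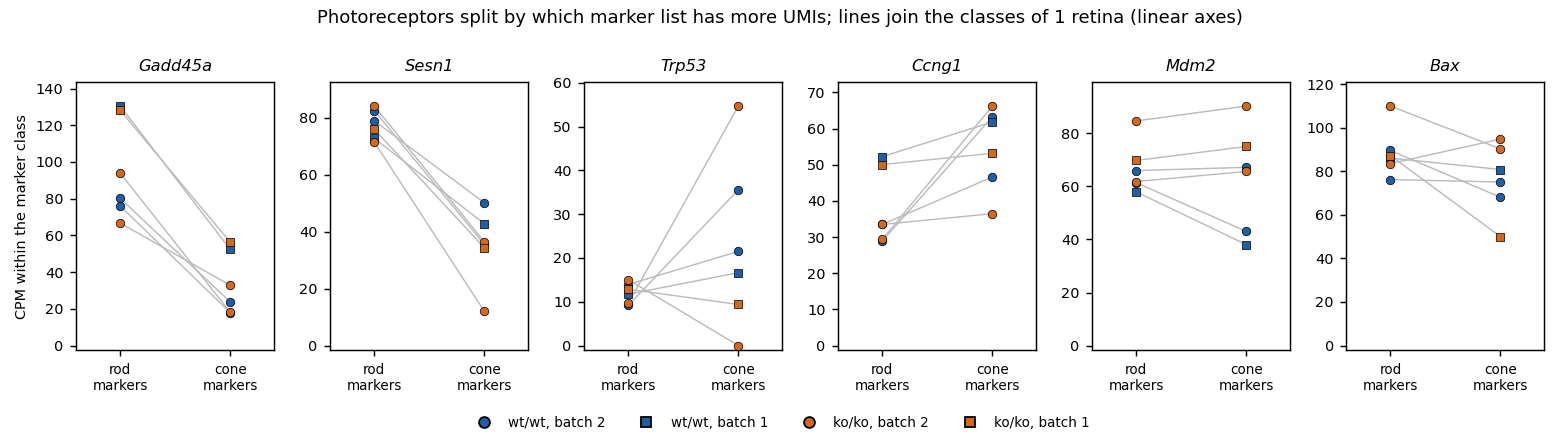
CPM of 6 genes (vertical, linear axes) in photoreceptors with more rod marker UMIs and with more cone marker UMIs; points are retinas, blue wt/wt and orange ko/ko, squares batch 1, and grey lines join the classes of 1 retina. For Gadd45a and Sesn1 all 6 lines fall from rod to cone and for Ccng1 all 6 rise, while those of Trp53, Mdm2 and Bax cross.

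The comparison of ko/ko with wt/wt asks whether loss of Dram2 changed the p53 genes. For each type, edgeR was run on its UMI sums, with 3 retinas in each genotype and adjustment over all genes tested. Of the 10 genes, 6 could be tested in photoreceptors, 5 in interneurons, 2 each in glia and mesenchymal cells and 0 in RPE cells, and 9 in the sum of all typed cells. None passed an adjusted p of 0.05, and none had an unadjusted p under 0.05, in any of these. In photoreceptors 5 of the 6 were higher and 1 lower in ko/ko, with a median log2 difference of 0.08 beside -0.01 for all genes, of which 48.3% were higher. Over all typed cells 8 of 9 were higher and 1 lower (median 0.13, beside -0.02 for all genes, of which 47.0% were higher). Both counts include the photoreceptor UMIs, so they are not independent, and some differences were near 0. Sesn1 was higher in photoreceptors by log2 0.01, with means of 74.8 CPM in wt/wt and 73.9 CPM in ko/ko retinas. Ccng1 was higher over all typed cells by 0.03, with means of 42.8 and 42.0 CPM. Interneurons had 2 higher and 3 lower, and glia and mesenchymal cells 1 each way. The background was the same: 0% of 13053 genes were called in photoreceptors, 0% of 7698 in interneurons, 0% of 4130 in glia, 0% of 1717 in mesenchymal cells, 0% of 308 in RPE cells and 0% of 15300 in all typed cells. At an unadjusted p under 0.05 there were 109, 86, 51, 150, 11 and 97 genes. That was 0.835% of genes in photoreceptors and 0.634% in all typed cells, fewer than the threshold itself lets through when nothing differs. Batch was not a term of these fits. With batch as a covariate the counts were 274 in photoreceptors and 421 in all typed cells. Adjusted p near 1 are thus no measure of how alike the genotypes were. Under limma-voom, DESeq2 and every other alternative tried, the count of the 10 genes called was also 0. The background did move in some alternatives, and with batch as a covariate 21 mesenchymal and 3 RPE genes were called. The study's own voom-limma test reported genes past its threshold in interneurons, mesenchymal cells and RPE cells, but none in photoreceptors. None of the 10 genes is in its list. Here limma-voom called 0 genes in those types, and the reason for this gap was not tested. The 0% above thus holds for the fits used here. A joint fit of genotype by cell type called 4 of 6290 genes (0.0636%) and 0 of the 6 tested here (253 genes and 0 of the 6 at an unadjusted p under 0.05).

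Mdm2 had the widest genotype gap of the 6 genes tested in photoreceptors. Its photoreceptor levels were 66.1, 59.8 and 55.6 CPM in wt/wt and 85.0, 62.1 and 70.2 CPM in ko/ko retinas, so that the groups overlapped. The log2 difference was 0.29 (SE 0.18, adjusted p = 0.998), with ko/ko above wt/wt by 10.6 CPM within batch 2 and by 14.6 CPM within batch 1. Interneurons had a log2 difference of 0.37 (SE 0.27, adjusted p = 1.000). In glia the order was the other way, with 42.0, 73.6 and 55.2 CPM in wt/wt and 40.2, 34.4 and 35.5 CPM in ko/ko retinas. These glial groups did not overlap, but they rest on 5 to 25 UMIs a retina and Mdm2 was too low there for the filter on low counts. Without that filter the glial log2 difference was -0.65 (SE 0.46, adjusted p = 0.888). Trp53 itself was at 12.7 ± 1.67 CPM in wt/wt and 13.3 ± 0.796 CPM in ko/ko photoreceptors (SD, n = 3, log2 difference 0.09, SE 0.22, adjusted p = 0.998). Interneurons gave 26.8 ± 5.52 and 18.5 ± 6.98 CPM for it (log2 -0.40, SE 0.40, adjusted p = 1.000), and the log2 difference ranged from -0.79 to -0.17 over the alternatives.

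Of the arrest genes, Cdkn1a in mesenchymal cells was at 189 ± 73.8 CPM in wt/wt and 286 ± 27.8 CPM in ko/ko retinas (SD, n = 3), a difference that did not pass the test (log2 0.55, SE 0.35, edgeR adjusted p = 0.696). Its groups overlapped, since wt/wt replicate 3 lay at 265 CPM and ko/ko replicate 2 at 254 CPM. Within batch 2 ko/ko was higher by 130 CPM and within batch 1 by 30.7 CPM. Leaving out 1 retina at a time moved the log2 difference between 0.25 (without wt/wt replicate 2) and 0.82 (without wt/wt replicate 3), and it was 0.99 without the 5% of cells with the most UMIs. In the endothelial, pericyte and fibroblast class alone Cdkn1a stood at 300, 175 and 392 CPM in wt/wt and 375, 369 and 334 CPM in ko/ko retinas. Gadd45a and Ccng1 in photoreceptors differed between genotypes by less than their spread (log2 0.08, SE 0.30, and log2 -0.02, SE 0.28; adjusted p = 0.998 for both). Ccng1 in glia did not overlap, at 11.5, 20.1 and 24.3 CPM in wt/wt and 33.5, 27.5 and 35.5 CPM in ko/ko retinas, on 3 to 14 UMIs (without the filter on low counts log2 0.71, SE 0.57, adjusted p = 0.888).

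For the death genes, Bax in mesenchymal cells was at 233, 85.4 and 265 CPM in wt/wt and 115, 114 and 128 CPM in ko/ko retinas, with overlap and a log2 difference of -0.73 (SE 0.44, adjusted p = 0.678). In the other types its log2 differences were 0.18 (SE 0.18) in photoreceptors, 0.07 (SE 0.20) in interneurons and -0.06 (SE 0.27) in glia. Bbc3 did not overlap between genotypes in photoreceptors, where wt/wt retinas gave 5, 5 and 4 UMIs (1.62, 1.52 and 1.12 CPM) and ko/ko retinas 2, 3 and 2 UMIs (0.691, 0.836 and 0.428 CPM). In mesenchymal cells its CPM did not overlap in the other direction, at 12.3, 10.7 and 33.1 CPM in wt/wt and 38.4, 43.8 and 38.5 CPM in ko/ko retinas. The UMIs behind these, 1, 1 and 3 in wt/wt and 3, 5 and 3 in ko/ko retinas, did overlap. Neither the photoreceptor nor the mesenchymal difference passed the test without the filter on low counts (log2 -1.06, SE 0.87, adjusted p = 0.933, and log2 1.03, SE 0.83, adjusted p = 0.801). In glia Bbc3 had 1 UMI in wt/wt and 7 in ko/ko retinas, with an unadjusted p of 0.0337 by edgeR without that filter but an adjusted p of 0.888. Pmaip1 had 15 mesenchymal UMIs in wt/wt and 17 in ko/ko retinas.

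Sesn1 in mesenchymal cells was at 85.9, 53.4 and 55.1 CPM in wt/wt and 128, 149 and 103 CPM in ko/ko retinas, which did not overlap. On these 52 UMIs it did not pass the filter, and without it the log2 difference was 0.96 (SE 0.51, adjusted p = 0.801). By class, the microglial cells gave 48.4, 0 and 0 CPM in wt/wt and 193, 137 and 111 CPM in ko/ko retinas, on 0 to 5 UMIs a retina. These ko/ko values rest on 7, 17 and 6 cells. The share of all genes without overlap was not counted in this class, so nothing is drawn from the gap. The endothelial, pericyte and fibroblast class gave 109, 97.3 and 81.6 CPM in wt/wt and 114, 158 and 102 CPM in ko/ko retinas. In photoreceptors Sesn1 was level, at 74.8 ± 4.92 CPM in wt/wt and 73.9 ± 6.24 CPM in ko/ko retinas (log2 0.01, SE 0.16, adjusted p = 0.998), and in glia the log2 difference was 0.36 (SE 0.37, adjusted p = 1.000). The glial value ranged from 0.05 to 0.67 over the alternatives. Phlda3 over all typed cells differed by a log2 of 0.09 (SE 0.67, adjusted p = 1.000), and Bbc3 by 0.20 (SE 0.36, adjusted p = 1.000).

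Counted by overlap, with at least 5 UMIs over the 6 retinas, groups of retinas were apart for 1 of 9 genes in photoreceptors (Bbc3), 0 of 9 in interneurons, 2 of 9 in glia (Mdm2 and Ccng1), 2 of 10 in mesenchymal cells (Bbc3 and Sesn1) and 0 of 1 in RPE cells. Over all genes with as many UMIs the shares were 6.59%, 6.96%, 7.7%, 11.6% and 10.7%. Marker sums of the mesenchymal type are given beside these values. Its 10 microglial markers summed to 19642 to 26962 CPM in wt/wt and to 5509 to 17306 CPM in ko/ko retinas. The 8 endothelial markers summed to 4823 to 9396 CPM and 8986 to 12481 CPM, and the 6 pericyte markers to 2828 to 5448 CPM and 3507 to 7178 CPM. The endothelial and the pericyte sums overlapped between genotypes, and a difference in makeup was not tested. The part of these markers' cells in the mesenchymal values of Cdkn1a, Sesn1 and Bbc3 was not tested.

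**Figure D4:**
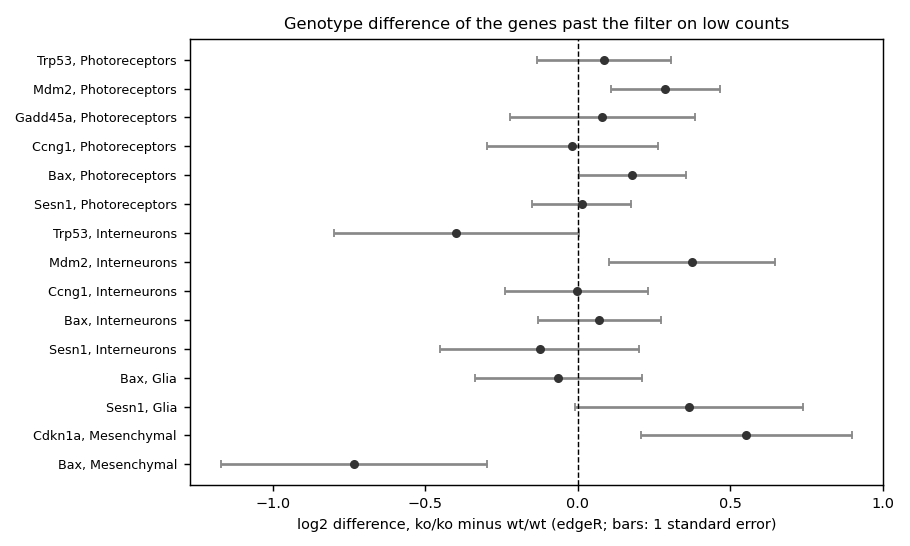
Log2 difference of ko/ko minus wt/wt (horizontal, edgeR, bars 1 standard error) for each gene and cell type that passed the filter on low counts (vertical), from 3 retinas per genotype. The values lie between -0.73 (Bax in mesenchymal cells) and 0.55 (Cdkn1a in mesenchymal cells), and no gene passed an adjusted p of 0.05.

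Lists of related genes were tested in the same fits, and 0 genes of any list passed in any type. The study itself reported Phlda1, a paralog of Phlda3, as higher in ko/ko interneurons past its own threshold. Of the 12 paralogs listed, 6 could be tested in interneurons here, and no genotype value of Phlda1 is given. The study's report on Phlda1 is thus not checked here. In the batch fit, with genotype in the model, Phlda1 was higher in batch 1 interneurons (log2 1.67, SE 0.36). In photoreceptors the 34 other p53 targets had 16 tested genes, of which 6 were higher and 10 lower in ko/ko, with a median log2 difference of -0.13 beside -0.01 for all genes. Gdf15, a secreted stress factor, had the smallest p among them (log2 1.25, SE 0.45, adjusted p = 0.998). The 17 regulators and relatives of p53 had 3 of 12 tested genes higher and 9 lower (median -0.19). The 12 other BCL2 family genes had 7 of 9 higher and 2 lower (median 0.17), against 2 of 5 higher and 3 lower in interneurons (median -0.13) and 1 of 3 higher and 2 lower in glia (median -0.29). The 17 caspases and execution genes had 5 of 14 higher and 9 lower (median -0.16). Dffb, the nuclease that cuts DNA in apoptosis, had the smallest p of these (log2 -0.62, SE 0.27, adjusted p = 0.998). Paralogs of the 10 genes had 3 of 8 higher and 5 lower (median -0.07), and cell cycle genes 3 of 7 higher and 4 lower (median -0.02). In interneurons the other p53 targets had 6 of 10 tested genes higher and 4 lower (median 0.07), in glia 2 of 7 higher and 5 lower (median -0.06), and in mesenchymal cells 3 of 4 higher and 1 lower (median 0.26). Plk2, a p53-induced kinase, had the smallest p there (log2 0.90, SE 0.39, adjusted p = 0.547).

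Gadd45a and Ccng1 differed between batches. With genotype in the model, Gadd45a was higher in batch 1 than in batch 2 in photoreceptors, at 122 against 75.1 CPM (log2 0.73, SE 0.16, edgeR adjusted p = 0.0434). In interneurons Gadd45a was at 39.8 against 17.8 CPM, on 54 UMIs in each batch 1 retina and 5 to 8 in those of batch 2. It passed the filter on low counts there through the batch 1 retinas in which it is high, so its test is given without the filter (log2 1.27, edgeR adjusted p = 0.00869, where 1463 of 25785 genes were called). Ccng1 was higher in batch 1 photoreceptors, at 51.8 against 32.9 CPM (log2 0.68, SE 0.15, adjusted p = 0.0427), but not in interneurons, at 73.3 against 71.8 CPM (log2 -0.03, SE 0.22, adjusted p = 0.950). Batch 1 and batch 2 retinas did not overlap for the 3 called values. These were picked by the batch test itself, and the share of all genes without overlap between batches was not counted. With the filter, 2 of 6 genes tested in photoreceptors were called, beside 5.49% of 13749 genes, and 0 of the 5 genes other than Gadd45a in interneurons, beside 12.5% of 8429. In glia 0 of 3 were called, beside 5.53% of 4790 genes (265 genes in all, and 1059 genes but 0 of the 3 at an unadjusted p under 0.05). Over all typed cells Ccng1 passed (log2 0.56, SE 0.16, adjusted p = 0.0456), 1 of 10 genes beside 15.4% of 16261, while Phlda3 (log2 1.44, SE 0.43, adjusted p = 0.0568) and Gadd45a (log2 0.51, SE 0.17, adjusted p = 0.0738) did not.

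These calls rest on few retinas, and neither batch 1 retina was left out of the batch fits. In fits with the filter on low counts, leaving out wt/wt replicate 1, wt/wt replicate 2 or ko/ko replicate 2 each took the calls of Gadd45a and Ccng1 to 0 in photoreceptors, interneurons and all typed cells. The interneuron call of Gadd45a without the filter was not refitted in this way. In photoreceptors the log2 differences were then 0.64 to 0.74 for Gadd45a and 0.64 to 0.71 for Ccng1. Over all genes the calls fell as well, in photoreceptors from 755 to 42, 53 and 213, in interneurons from 1050 to 393, 528 and 577 and in all typed cells from 2504 to 686, 374 and 1314. Other values moved with batch too. In interneurons the amacrine class held 171 and 141 cells in the batch 1 retinas and 3 to 19 in those of batch 2. Within the bipolar class alone Gadd45a was at 28.6 and 39.9 CPM in batch 1 and 9.79 to 21.8 CPM in batch 2. Immediate early genes summed to 422 and 445 CPM in batch 1 interneurons and to 728 to 1140 CPM in batch 2, and 6 of the 8 tested were called lower in batch 1. The part of these, and of the mitochondrial share, in the batch differences was not tested.

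**Figure D5:**
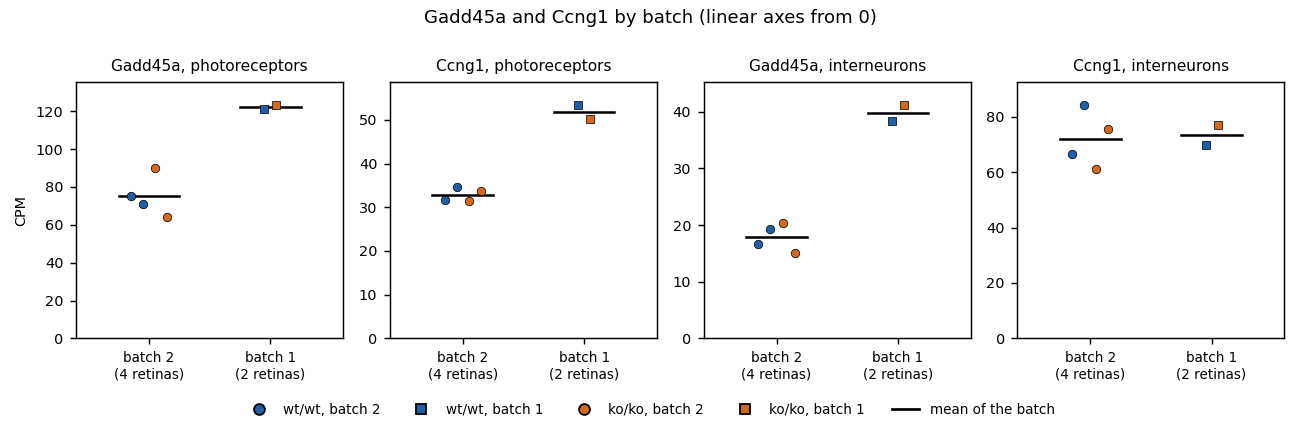
CPM of Gadd45a and Ccng1 in photoreceptors and interneurons (vertical, linear axes from 0) in the 4 retinas of batch 2 and the 2 of batch 1; points are retinas, blue wt/wt and orange ko/ko, and lines are batch means. Gadd45a in both types and Ccng1 in photoreceptors lie apart between batches, and Ccng1 in interneurons does not.

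For the 3 genes with the most UMIs, the genes with the most similar pattern were sought over the 18 sums of photoreceptors, interneurons and glia. The measure was Pearson's r of log2(CPM + 1) among genes with at least 100 UMIs, and the sums share retinas and cell types. Bax was most like Pea15a (r = 0.931), E130218I03Rik (0.929) and Pafah1b3 (0.924). Gadd45a was most like Raly (0.954), Armc1 (0.935) and Cd59a (0.919). Sesn1 was most like Mest (0.930), Epb41l5 (0.908) and Ccdc6 (0.901).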

How the data were processed

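Single-cell libraries (10x Genomics 3′ v2) of 6 retinas were aligned to GRCm38 with Cell Ranger 3.1.0, per the submitters' processing notes. The authors deposited raw UMI counts of 52636 genes in 46375 cells, not normalized, and a table of sample, genotype, batch and cell type, which came from their clustering. Every count column was used. GENCODE M21 gave the gene names, and promoter sequences are from RefSeq (GRCm38.p6). Cells are named by running numbers in the table, so barcodes shared between libraries could not be counted, and doublets were not removed.

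UMIs were summed per retina and deposited type and compared with edgeR 4.0.16 (glmQLFit and glmQLFTest, TMM factors, filterByExpr, Benjamini-Hochberg adjustment over all genes tested, threshold 0.05), with genotype as the only term, with retina as a block between types, and with genotype and batch for the batch term. CPM are without TMM factors. Limits for a count of 0 are 3 counts and cover counting error only. The 10 genes are all named. Of other lists a gene is named if it passed a genotype test or had one of the 3 smallest p of its list. Members, lists and tests were chosen with earlier results of these data known. The promoter search, the marker classes and the fit without TMM factors were chosen after seeing the data. The tests were tested on simulated data. Alternatives were limma-voom 3.58.1, DESeq2 1.42.0, RLE factors, no filter on low counts, batch as a covariate, a replicate block, a stricter choice of cells (500 UMIs or more, a mitochondrial share of 10% or less), the 5% of cells with the most UMIs left out, the wt/wt retinas alone, no TMM factors between types, and each retina left out (for the batch term, each batch 2 retina). R was 4.3.3 and Python 3.11.15 (pandas 2.3.3, numpy 2.4.6, scipy 1.17.1, matplotlib 3.10.9). Other experiments of the study were not analysed here.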

Additional observations from a re-analysis of the deposited data

Results flagged for a closer look

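Over all 6 retinas, a retina that stood far from the other 5 was looked for by Dixon's ratio. In the 55 sets of CPM with any spread (10 genes, 5 cell types and their sum), 5 were found. The cut is passed by about 1 in 20 sets of independent values with a normal spread. Sets with few UMIs are not spread so, and the summed set of a gene holds the UMIs of its types. The 5 are therefore not set against chance. Trp53 in the mesenchymal cells of wt/wt replicate 2 was at 149 CPM (14 UMIs), far above the other retinas at 25.6 to 64.2 CPM, and 11 of these UMIs lay in the microglial class. Bax in the photoreceptors of ko/ko replicate 1 was at 109 CPM on 315 UMIs, above the other retinas at 76.4 to 87.8 CPM. The other 3 rest on 1 to 3 UMIs: Cdkn1a in the glia of ko/ko replicate 1 stood high at 20.1 CPM (others 0 to 2.54 CPM), Phlda3 in the glia of wt/wt replicate 2 low at 6.69 CPM (others 20.1 to 27.5 CPM), and Phlda3 in the RPE cells of ko/ko replicate 3 was at 58.6 CPM where the other retinas had 0.

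The 629 cells without a type entered no comparison, yet held 130 UMIs of the 10 genes, 343 CPM beside 383 CPM in typed cells. Bax gave 34 of them, Gadd45a 32, Sesn1 30, Mdm2 17 and Ccng1 15, and no UMI of Cdkn1a, Pmaip1 or Phlda3 was seen (3 counts would be 7.91 CPM).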

How the results depend on the processing

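None of the 10 genes was called between genotypes under any alternative. Counts over all genes called by genotype, 0 in each type, moved as follows. Without the filter on low counts there were 1 gene in photoreceptors, 1 in interneurons, 28 in mesenchymal cells, 3 in RPE cells and 1 in all typed cells. In mesenchymal cells there were 9 with DESeq2, 21 with batch as a covariate and 0 to 7 with each retina left out (7 without ko/ko replicate 2). In RPE cells there were 1 with DESeq2, 3 with batch as a covariate and 0 to 2 with each retina left out (2 without wt/wt replicate 3). Same-numbered retinas deviated together with correlations of 0.0762, 0.535 and 0.646 (replicates 1 to 3), and wt/wt replicate 1 was closest to ko/ko replicate 2 (0.478), so the numbers were not taken to pair retinas; with the replicate block 26 mesenchymal and 4 RPE genes were called, and the block changed no call of the 10 genes. Between types, 6 of the 10 genes were called (5930 of 6290 genes in all), 10 without the filter (15741 of 32864), and 3 to 7 with each retina left out (3 without wt/wt replicate 3, with 4607 of 4893). Of the 6, Cdkn1a, Gadd45a and Ccng1 passed the filter through the type where each is high, so these counts support nothing. By batch, over all typed cells 1 of the 10 genes was called (2504 of 16261 genes in all), 2 with limma-voom (2681 of 16261), 2 without the filter (2968 of 32864) and 0 to 3 with each batch 2 retina left out (3 without ko/ko replicate 1, with 6288 of 16243, and 0 without each of the others, with 374 to 1314 genes called), against 0 to 2 in photoreceptors and 0 to 1 in interneurons. Fits without a batch 1 retina were not run for the batch term.

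Signs turned for small genotype differences. Trp53 in photoreceptors was -0.063 (log2) in cells with at least 500 UMIs. Ccng1 in photoreceptors was 0.0046 with DESeq2 and without the 5% of cells with the most UMIs, and 0.0044 with RLE factors and without the filter. Ccng1 in interneurons, -0.0043 as reported, was 0.022 with limma-voom, 0.024 with DESeq2, 0.018 with RLE factors, 0.023 with batch as a covariate, 0.0082 without the filter, 0.0045 with the replicate block and 0.12 without the 5% of cells with the most UMIs. With each retina left out, ranges were -0.21 to 0.38 for Gadd45a, -0.28 to 0.26 for Ccng1 and -0.051 to 0.092 for Sesn1 in photoreceptors, -0.049 to 0.098 for Ccng1 and -0.28 to 0.079 for Sesn1 in interneurons, -0.12 to 0.085 for Bax in glia and -0.38 to 1.06 for Phlda3 in all typed cells. Sesn1 in mesenchymal cells minus glia was -0.018 in the wt/wt retinas alone. The cause of these changes was not tested. Of the values of single genes under alternatives, 349 kept their direction and their side of the threshold, 29 turned sign, 14 lost a call and 8 gained one.

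Depth limits the low genes: Pmaip1 and Cdkn1a have few UMIs outside mesenchymal cells, and Bbc3 and Phlda3 have only 90 and 107 over all typed cells. RPE sums hold at most 35968 UMIs, and a difference that missed the threshold with 3 retinas a group is not shown to be absent.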
